A study of Homo sapiens with 8 samples.

Results

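The adaptors, receptors and binding proteins of insulin-like growth factor (IGF) signalling were compared between spheroids of the human ovarian adenocarcinoma line OVCAR-8, the cisplatin-sensitive group, and spheroids of its cisplatin-resistant derivative. The 10 genes were chosen from these families with the log2 signal difference between the lines in view, so the differences of these 10 genes are given as a description, with no p-value. They are 3 insulin receptor substrates (IRS1, IRS2 and IRS4), 2 receptors (INSR and IGF1R) and 5 IGF-binding proteins (IGFBP2 to IGFBP6). Of the 10, 9 had a probeset annotated to 1 gene, and all 9 passed the filter on low signal that left 15931 genes measured. The only probeset of IGFBP6 is shared with another gene, so IGFBP6 has no value here.

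The resistant line, called OVCAR-8R here and OVCAR-8C in the labels, was derived by raising the cisplatin dose in steps to 5 μM, and it stayed resistant after the drug was withdrawn. OVCAR-8 received no such selection. Both lines were kept in DMEM with 10% FBS and grown as spheroids of about 300 μm in 2% agarose molds, and each line was profiled on 4 arrays. The comparison is of 1 selected line with its parent, and no source used here says whether the selected line is 1 clone. The arrays are named biological replicates, but where their handling split is not said, so part of their spread may be technical. The median log2 signal of an array was 6.68 to 6.73 in OVCAR-8R and 6.67 to 6.73 in OVCAR-8. Of 9 markers of ovarian carcinoma epithelium, KRT8 and KRT18 lay above the array median in both lines, and MUC16, KRT19 and CDH1 lay below it in both. PAX8, KRT7 and EPCAM lay above it in OVCAR-8R alone, at log2 means of 10.28 against 6.51, 10.82 against 6.36 and 7.89 against 5.88, and WT1 lay above it in OVCAR-8 alone, at 6.19 in OVCAR-8R against 7.05. Of the markers of other cell types, all 4 of endothelium lay below the array median in both lines, as did 3 of 4 of leukocytes. The exception was CD68, at 11.20 in OVCAR-8R and 8.68 in OVCAR-8, while PTPRC, which defines leukocytes, read 3.86 and 3.97. Of 5 fibroblast markers, 3 lay below it in OVCAR-8R and 4 in OVCAR-8, with COL1A1 above it in both (9.50 and 7.46) and PDGFRB above it in OVCAR-8R alone (6.79 against 6.19). The part of these differences in the results was not tested.

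Insulin and the IGFs activate the tyrosine kinase receptors INSR and IGF1R, which phosphorylate the IRS proteins that dock on them. Phosphorylated IRS proteins recruit PI3-kinase and GRB2 and so pass the signal to AKT, mTOR and the FOXO transcription factors. IGFBPs are secreted proteins that bind IGFs outside the cell, where they can prolong the life of the ligand, withhold it from IGF1R or release it after cleavage by proteases. Ovarian cancer cells are known to carry IGF1R and to respond to IGFs.

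The promoter windows of the adaptors and of IGFBP4 are printed because IRS4 and IGFBP4 had the widest differences of the family and because IRS1 and IRS2 lay on the other side of 0 from IRS4. Each window ends at the base before the RefSeq transcription start, is written 5′ to 3′ on the gene's strand, and comes from GRCh38.p14. The windows are chr2:226799821-226800070 on the minus strand for IRS1, chr13:109786584-109786833 on the minus strand for IRS2, chrX:108736564-108736813 on the minus strand for IRS4 (the first of 2 starts listed) and chr17:40443200-40443449 on the plus strand for IGFBP4. Capitals mark matches, on either strand, to the 5 motifs searched, with overlapping matches counted separately: TATAAA (the TATA box), GGGCGG (the GC box), GTAAACA (the FOXO core), TGANTCA (the AP-1 site) and GGAATG (the TEAD site).
IRS1: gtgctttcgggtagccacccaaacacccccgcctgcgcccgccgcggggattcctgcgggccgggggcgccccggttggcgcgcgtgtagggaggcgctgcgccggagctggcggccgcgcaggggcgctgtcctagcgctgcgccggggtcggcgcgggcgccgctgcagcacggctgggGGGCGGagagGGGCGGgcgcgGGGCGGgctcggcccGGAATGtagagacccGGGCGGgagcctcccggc
IRS2: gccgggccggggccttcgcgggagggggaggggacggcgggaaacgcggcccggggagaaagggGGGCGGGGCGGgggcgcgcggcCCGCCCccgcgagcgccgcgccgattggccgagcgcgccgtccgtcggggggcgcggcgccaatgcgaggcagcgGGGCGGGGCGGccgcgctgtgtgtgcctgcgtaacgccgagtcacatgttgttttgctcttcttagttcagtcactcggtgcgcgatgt
IRS4: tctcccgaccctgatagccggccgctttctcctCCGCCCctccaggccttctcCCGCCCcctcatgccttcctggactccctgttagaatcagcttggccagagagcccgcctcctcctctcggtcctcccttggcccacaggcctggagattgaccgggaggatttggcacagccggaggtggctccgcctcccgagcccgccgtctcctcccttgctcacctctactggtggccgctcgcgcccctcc
IGFBP4: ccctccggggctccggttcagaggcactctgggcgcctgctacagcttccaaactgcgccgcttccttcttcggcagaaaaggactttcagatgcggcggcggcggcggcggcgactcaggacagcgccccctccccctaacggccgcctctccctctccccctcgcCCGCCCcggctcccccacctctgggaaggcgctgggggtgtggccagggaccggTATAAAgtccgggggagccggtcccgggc

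The IRS1 and IRS2 windows are rich in CpG dinucleotides, with 39 in IRS1 and 42 in IRS2, which put them at percentiles 97.5 and 98.7 of the 27305 RefSeq promoters of the same length. The IRS4 window held 16 CpGs, at percentile 59.2, and the median promoter held 11. The GC box, which binds SP-family factors and occurs in 42.3% of all promoters, had 4 matches in IRS1, 5 in IRS2, 2 in IRS4 and 1 in IGFBP4. Only the window of the first listed start was searched for each of the 10 genes, and IGFBP2 has 3 starts listed. Among these windows, that of IGFBP4 alone matched TATAAA, which 11.1% of all promoters hold, and the match lies 29 bases before the start. The IRS1 window has a match to GGAATG, which 11.9% of promoters hold and which is also present in those of IGFBP5 and IGFBP6. No window of the 10 genes matched TGANTCA, found in 6.6% of promoters, and GTAAACA, found in 2.98%, matched in IGFBP6 alone. The IGF1R window had the most CpGs of the 10, with 48, at percentile 99.7. A match is a description of the letters and not a bound site.

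IRS4 stood far below its parental level in the resistant line, while IRS1 and IRS2 stood above theirs. IRS4 is an adaptor that is normally made in few adult tissues and that signals to PI3-kinase as the other substrates do. Its log2 signal was 5.91, 6.33, 6.34 and 6.32 on OVCAR-8R arrays 1 to 4 and 11.64, 11.48, 11.78 and 11.64 on OVCAR-8 arrays 1 to 4. All 4 OVCAR-8 arrays were high and all 4 OVCAR-8R arrays fell below their array medians, and the nearest arrays of the lines were 5.14 apart. The means were 6.22 ± 0.21 and 11.63 ± 0.13 in that order (SD, n = 4 each), a log2 difference of -5.41 (SE 0.11) or 42.5-fold. This was the 4th-widest fall of the 15931 genes measured, and the 24th-widest difference in either direction. In bulk RNA, fewer cells that make a transcript and less of the transcript per cell cannot be told apart, which holds for every gene here.

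IRS1, the adaptor that couples IGF1R to growth in many epithelial cells, had log2 signals of 6.68, 6.89, 6.77 and 6.64 on the OVCAR-8R arrays and 5.69, 5.91, 5.67 and 5.78 on the OVCAR-8 arrays. The lines did not overlap, with 0.74 between their nearest arrays. The means were 6.74 ± 0.11 and 5.76 ± 0.11 (SD, n = 4 each), a log2 difference of 0.98 (SE 0.08) or 1.98-fold. IRS2, the substrate best known for insulin action in liver and for beta-cell survival, measured 8.15, 8.05, 8.06 and 7.90 in OVCAR-8R and 7.24, 7.35, 7.07 and 7.13 in OVCAR-8. Every OVCAR-8R array was again the higher one. The IRS2 means were 8.04 ± 0.11 and 7.20 ± 0.12 (SD, n = 4 each), which differed by 0.84 (SE 0.09) or 1.79-fold. The 3 adaptors therefore ranged from -5.41 to 0.98 in their log2 differences.

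**Figure D1:**
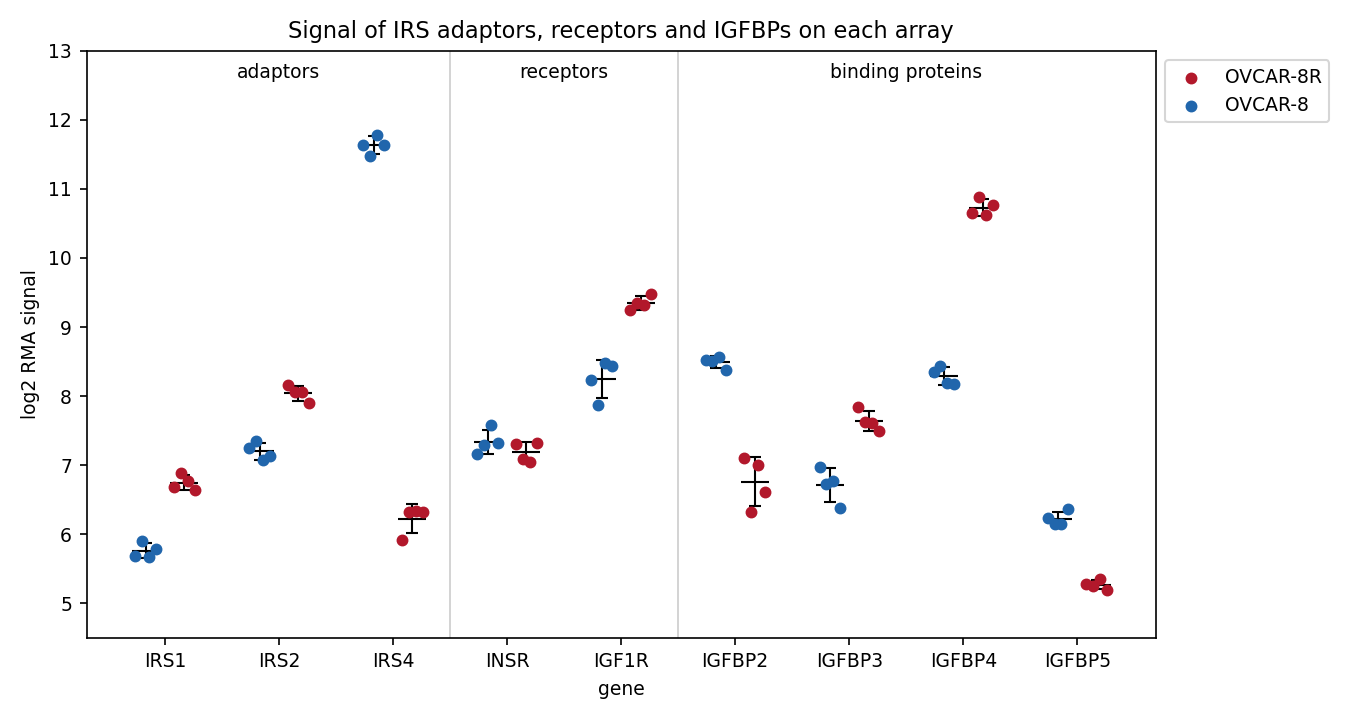
Log2 RMA signal of the 9 measured genes (y axis) by gene (x axis), with a point per array, OVCAR-8R in red and OVCAR-8 in blue, and bars for the mean ± SD of 4 arrays. IRS4 stands at a mean of 6.22 in OVCAR-8R against 11.63 in OVCAR-8, IRS1 and IRS2 lie higher in OVCAR-8R, and INSR is the 1 gene whose lines overlap.

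Of the receptors, IGF1R was higher in OVCAR-8R and the arrays of the lines overlapped for INSR. IGF1R, the receptor for both IGFs, had log2 signals of 9.25, 9.35, 9.31 and 9.48 in OVCAR-8R and 8.23, 7.88, 8.48 and 8.43 in OVCAR-8. All OVCAR-8R arrays were higher, and OVCAR-8 array 2 was the lowest of the 8. The means were 9.35 ± 0.10 and 8.25 ± 0.27 (SD, n = 4 each), a log2 difference of 1.10 (SE 0.13) or 2.14-fold. Without OVCAR-8 array 2 the difference was 0.97, which is under 2-fold. IGF1R was the 1 family member with a further probeset, which read 8.05, 8.41, 8.20 and 8.39 in OVCAR-8R and 7.07, 7.08, 7.53 and 7.38 in OVCAR-8. Both probesets thus ran the same way without overlap, and the further one differed by 0.997 (SE 0.13), just under 2-fold.

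INSR, the insulin receptor, had log2 signals of 7.31, 7.09, 7.05 and 7.32 in OVCAR-8R and 7.16, 7.29, 7.59 and 7.31 in OVCAR-8. Neither line was the higher one throughout. The means were 7.19 ± 0.14 and 7.34 ± 0.18 (SD, n = 4 each), and the difference of -0.15 (SE 0.11) was smaller than the SD within OVCAR-8. Leaving out 1 array moved it to between -0.21 (without OVCAR-8 array 1) and -0.06 (without OVCAR-8 array 3). The probeset does not separate the INSR isoforms, which differ by 1 alternative exon and differ in their binding of IGF2.

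The binding proteins moved in both directions, with IGFBP4 and IGFBP3 higher and IGFBP2 and IGFBP5 lower in OVCAR-8R. IGFBP4, a mostly inhibitory carrier that the protease PAPPA cleaves, had log2 signals of 10.64, 10.89, 10.62 and 10.76 in OVCAR-8R and 8.35, 8.43, 8.19 and 8.17 in OVCAR-8. The lines were 2.19 apart at their nearest arrays. The means were 10.73 ± 0.12 and 8.29 ± 0.13 (SD, n = 4 each), a log2 difference of 2.44 (SE 0.09) or 5.43-fold, ranked 275 among the rises of all genes. IGFBP3, the main IGF carrier in serum and a target of p53 and TGF-beta signalling, measured 7.84, 7.62, 7.61 and 7.49 in OVCAR-8R and 6.97, 6.72, 6.77 and 6.38 in OVCAR-8. Every OVCAR-8R array was higher, by at least 0.52. The IGFBP3 means were 7.64 ± 0.15 and 6.71 ± 0.25 (SD, n = 4 each), which differed by 0.93 (SE 0.13) or 1.91-fold.

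IGFBP2, a carrier with an RGD sequence that can engage integrins, had log2 signals of 7.10, 6.33, 7.00 and 6.61 in OVCAR-8R and 8.52, 8.51, 8.57 and 8.37 in OVCAR-8. All OVCAR-8R arrays were lower, and they were further apart than the OVCAR-8 arrays. The means were 6.76 ± 0.36 and 8.49 ± 0.09 (SD, n = 4 each), a log2 difference of -1.73 (SE 0.16), ranked 309 among the falls. IGFBP5, which binds extracellular matrix and bone mineral, measured 5.28, 5.25, 5.35 and 5.20 in OVCAR-8R and 6.24, 6.14, 6.14 and 6.36 in OVCAR-8. No OVCAR-8R array reached the OVCAR-8 range. The IGFBP5 means were 5.27 ± 0.06 and 6.22 ± 0.10 (SD, n = 4 each), which differed by -0.95 (SE 0.08) or 1.94-fold, and the OVCAR-8R level was close to the lowest 25% of probeset means, which ended at 5.11.

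The spread of IGFBP2 within OVCAR-8R followed a split of these arrays that many probesets shared. Across the probesets kept, which are not independent replicates, the deviations of arrays 1 and 3 from the OVCAR-8R mean ran together (r = 0.43). Those of arrays 2 and 4 did so too (r = 0.48). OVCAR-8 array 2 deviated with OVCAR-8R arrays 1 and 3 (r = 0.35 and 0.28). OVCAR-8 array 4 deviated with OVCAR-8R arrays 2 and 4 (r = 0.38 and 0.44). For OVCAR-8 arrays 1 and 3, r with the OVCAR-8R arrays was -0.14 to 0.16. The 2 IGFBP2 values on OVCAR-8R arrays 1 and 3 averaged 0.58 above those on OVCAR-8R arrays 2 and 4, a wider gap than 98.6% of genes had. Its range over the OVCAR-8R arrays was 0.77, where the median gene had 0.26. What sets the OVCAR-8R arrays apart was not tested, and the IGFBP2 gap to the nearest OVCAR-8 array was still 1.27.

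Read over the 9 genes, IGF1R and IGFBP4 were called higher and IRS4 and IGFBP2 lower, where a call needs an adjusted p under 0.05 and at least 2-fold. Of all 15931 genes, 8.37% were called higher and 8.37% lower. The selection used this same contrast, so nothing is read from the comparison of these counts. Just inside 2-fold was IGF1R (1.10), and just outside it were IRS1 (0.98), IGFBP5 (-0.95) and IGFBP3 (0.93). In 5 of the 9 genes every OVCAR-8R array lay above every OVCAR-8 array, as in 27.3% of all genes, and in 3 every one lay below, as in 29.5%. The median absolute log2 difference was 0.98 over the 9 genes and 0.34 over all genes. IRS1 moved past 2-fold without OVCAR-8R array 1 (1.01), without OVCAR-8R array 4 (1.02) and without OVCAR-8 array 2 (1.03), and IGFBP3 did so without OVCAR-8 array 1 (1.02).

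**Figure D2:**
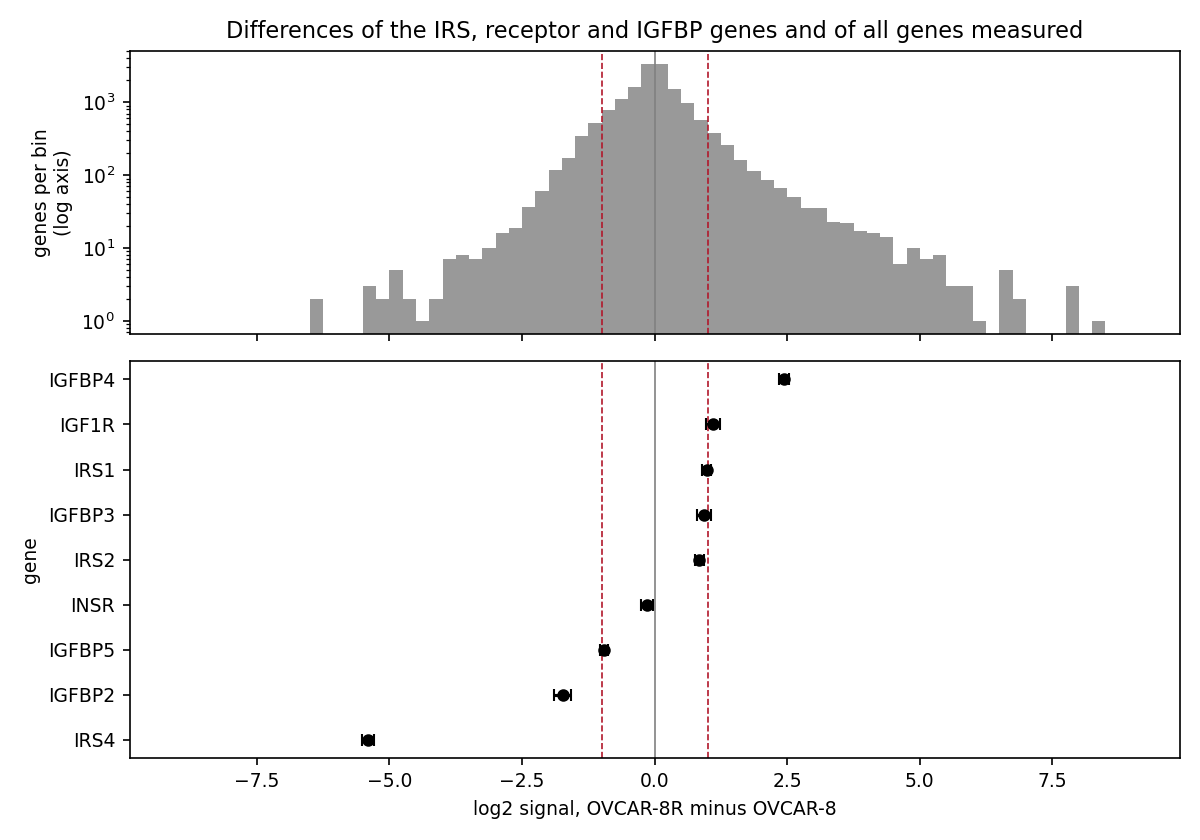
Log2 signal of OVCAR-8R minus OVCAR-8 (x axis) for all 15931 genes as a histogram with a log count axis (top) and for the 9 genes with their standard errors (bottom). Dashed lines mark 2-fold. IRS4 at -5.41 lies in the far left tail, IGFBP4 at 2.44 is the highest of the 9, and IRS1, IGFBP5 and IGFBP3 lie between the dashed lines, close to one of them.

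The genes whose profile over the 8 arrays was nearest to IRS4, by the root mean square distance between centred log2 signals among 15922 other genes, were MID1 (0.16), LIN28B (0.19) and NEIL3 (0.25). MID1 is a microtubule-bound ubiquitin ligase, LIN28B an inhibitor of let-7 processing, and NEIL3 a DNA glycosylase. Their own log2 differences were -5.46, -5.28 and -5.04. Nearest to IGFBP4 were HDAC9 (0.08), a histone deacetylase, TNFRSF9 (0.09), a receptor of the TNF family, and CD68 (0.10), a lysosomal glycoprotein used as a macrophage marker. CD68 is also the 1 leukocyte marker above the array median, as given above. Nearest to IGFBP2 were the stress-induced factor ATF3 (0.10), the BMP-regulated SMAD9 (0.14) and the drug efflux pump ABCB1 (0.16). With 2 lines, such likeness reflects mostly the size of the difference between them.

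In chromosomal order the IRS genes have type IV collagen genes among the nearest 2 measured genes on one side, so their measured protein-coding neighbours were compared. Beside IRS4 on chromosome X, the collagen genes COL4A6 and COL4A5 differed by -0.21 (SE 0.09) and -0.02 (SE 0.07), and GUCY2F by -0.13 (SE 0.13). NXT2, an mRNA export factor, was lower by a log2 difference of -1.20 (SE 0.12, limma adjusted p = 2.28e-05). Beside IRS2 on chromosome 13, COL4A1 and COL4A2 differed by 0.62 (SE 0.09) and 0.64 (SE 0.10) and were not called, as they were under 2-fold. Beside IRS1 on chromosome 2, COL4A4 differed by -0.11 (SE 0.08), and DOCK10 was higher by 2.70 (SE 0.12, limma adjusted p = 7.56e-08).

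IGFBP2 and IGFBP5 are each other's neighbour on chromosome 2 and lay on the same side of 0, at -1.73 and -0.95. IGFBP3 and IGFBP1 adjoin on chromosome 7, and IGFBP1, a hepatic and decidual carrier, differed by 0.06 (SE 0.13) where IGFBP3 differed by 0.93. Tensin genes are among the listed neighbours of 3 binding proteins. TNS1, listed for IGFBP5, was higher by 1.23 (SE 0.15, limma adjusted p = 7.38e-05). TNS3, listed for IGFBP3 (0.95), and TNS4, listed for IGFBP4 (0.32), were not called. Of the 32 distinct neighbours that are not in the family, 4 were called higher and 1 lower, where 16.7% of all genes were called in either direction. The median absolute difference of these neighbours was 0.33, where all genes had 0.34. No regional pattern is read from the called neighbours. Gene order was taken from RefSeq, and the neighbour lists were made without regard to distance.

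**Figure D3:**
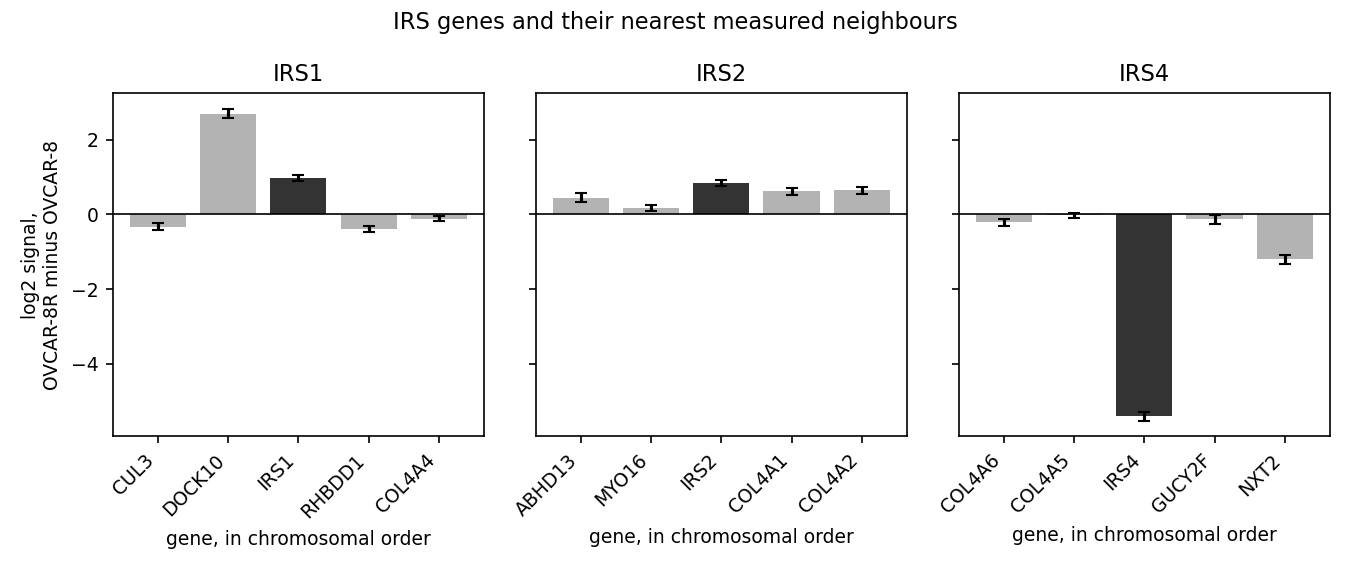
Log2 signal of OVCAR-8R minus OVCAR-8 (y axis, bars with standard errors) for IRS1, IRS2 and IRS4 (dark) and for the nearest 2 measured protein-coding genes on each side in chromosomal order (grey). The bar of IRS4 at -5.41 exceeds those of its neighbours, of which NXT2 at -1.20 is the longest, and beside IRS1 the bar of DOCK10 at 2.70 is longer than that of IRS1.

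The rest of the pathway was followed in 10 lists of 98 other genes, of which 88 were measured. The lists were written from general knowledge, with earlier results of these data known. Of the 88, 16 were called higher and 6 lower, 25% in all, where 16.7% of all genes were called in either direction. Their median log2 difference was 0.20 against -0.01 for all genes. As the lists were made with those results known, nothing is read from these comparisons. Of the 3 ligands none has a value: IGF1 was left out by the filter on low signal, and the other two are not analysed here for want of a probeset of 1 gene.

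None of the other receptors, carriers and proteases was called, where 16.7% of all genes were. IGF2R, the receptor that clears IGF2, differed by 0.60 (SE 0.07, limma adjusted p = 7.96e-05) and stayed under 2-fold, and INSRR, an alkali-sensing relative of INSR, differed by 0.01 (SE 0.08). Of the 4 other carriers, IGFBPL1 differed by 0.96 (SE 0.10), IGFALS, which holds IGFBP3 in the ternary serum complex, by 0.22 (SE 0.12), IGFBP1 by 0.06 and IGFBP7 by -0.36 (SE 0.07). The 5 measured proteases and inhibitors are named after their values were seen. ADAM12, which cleaves IGFBP3 and IGFBP5, differed by 0.99 (SE 0.11) and the PAPPA inhibitor STC1 by 0.80 (SE 0.07). PAPPA, the protease of IGFBP4, differed by 0.45 (SE 0.11), HTRA1 by 0.21 (SE 0.08) and STC2 by -0.004 (SE 0.11). In OVCAR-8R, every array of ADAM12, STC1 and HTRA1 lay above every OVCAR-8 array, while PAPPA and STC2 overlapped. Of all genes, 27.3% lay wholly above in this way and 29.5% wholly below. The overlap does not rank these genes, as HTRA1 had a limma adjusted p of 0.0516 and PAPPA, which overlapped, 0.00556.

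The IGF2 mRNA-binding proteins, which stabilise IGF2 and other transcripts, moved apart. IGF2BP3 had log2 signals of 5.34, 5.84, 5.21 and 5.70 in OVCAR-8R and 9.46, 9.37, 9.45 and 9.42 in OVCAR-8. It fell by 3.91 on the log2 scale (SE 0.13, limma adjusted p = 1.29e-08), with all OVCAR-8R arrays low. IGF2BP2 rose, from 8.58 to 10.16, by 1.58 (SE 0.09, limma adjusted p = 2.72e-07). IGF2BP1 differed by -0.41 (SE 0.09) and was not called.

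Of 24 adaptors and brakes that act at the receptors, 6 were higher and 2 lower, where 8.37% of all genes were called in each direction. As the list was written with earlier results known, nothing is read from this count. CAV1, the caveolar coat protein that binds both receptors, rose by 3.63 (SE 0.10, limma adjusted p = 2.90e-09), from 7.99 to 11.62. The ubiquitin ligase NEDD4 rose by 2.12, the adaptor SHC1, which competes with IRS proteins for the receptor, by 1.60, and DOK4, a substrate of INSR, by 1.23. GRB10, an adaptor that blocks INSR and IGF1R kinase activity, fell by 2.25 (SE 0.12, limma adjusted p = 2.90e-07), from 8.37 to 6.12. ENPP1, a membrane phosphodiesterase that inhibits INSR, fell by 1.72 (SE 0.11). DOK4 was no longer called when limma tested for more than 2-fold.

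Of 13 measured genes of PI3-kinase and AKT, 4 were higher and 1 lower, where 8.37% of all genes were called in each direction. This list too was written with earlier results known, and 4 more listed genes are not analysed here. INPP4B, a phosphatase that removes a PI3-kinase product, rose by 3.33 (SE 0.11, limma adjusted p = 7.85e-09), from 7.40 to 10.74. The catalytic subunits PIK3CB and PIK3CD rose 2.82-fold and 2.48-fold. The lipid phosphatase INPPL1 rose by 1.06 (SE 0.10), which was 0.97 and under 2-fold without OVCAR-8 array 2. PIK3R3, a regulatory subunit that binds IRS proteins and IGF1R, fell by 1.89 (SE 0.09, limma adjusted p = 1.26e-07). The probesets of PDPK1, chosen after its values were seen, disagreed. One pair differed by 0.50 and 0.45 and was not called. Both of the other pair differed by -1.15 and were called lower. Their limma adjusted p was also the same (0.000236), so they may not be separate measurements.

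None of the 16 mTOR genes was called, where 16.7% of all genes were, and their median difference was 0.10. By adjusted p alone, with no limit on size, 5 of them were higher and 1 lower. Of all 15931 genes, 4396 were higher and 4776 lower by that rule. Of 14 measured FOXO factors and targets, 4 were called higher and 2 lower, where 8.37% of all genes were called in each direction. This list was also written with earlier results known. The ubiquitin ligase subunit FBXO32 rose by 1.63 (SE 0.14), the thioredoxin inhibitor TXNIP by 1.60 (SE 0.14), the CBP-binding regulator CITED2 by 1.39 (SE 0.07) and the stress sensor GADD45A by 1.22 (SE 0.10). SESN1 and SESN3, sestrins that restrain mTOR, had differences of -2.13 (SE 0.15) and -1.34 (SE 0.10), both called lower. GADD45A was no longer called when limma tested for more than 2-fold. Of 7 genes of glucose uptake and glycogen synthesis, 1 was called (14.3%, where 16.7% of all genes were called). It was the glycogen synthase kinase GSK3B, which rose by 1.41 (SE 0.09, limma adjusted p = 9.88e-07).

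**Figure D4:**
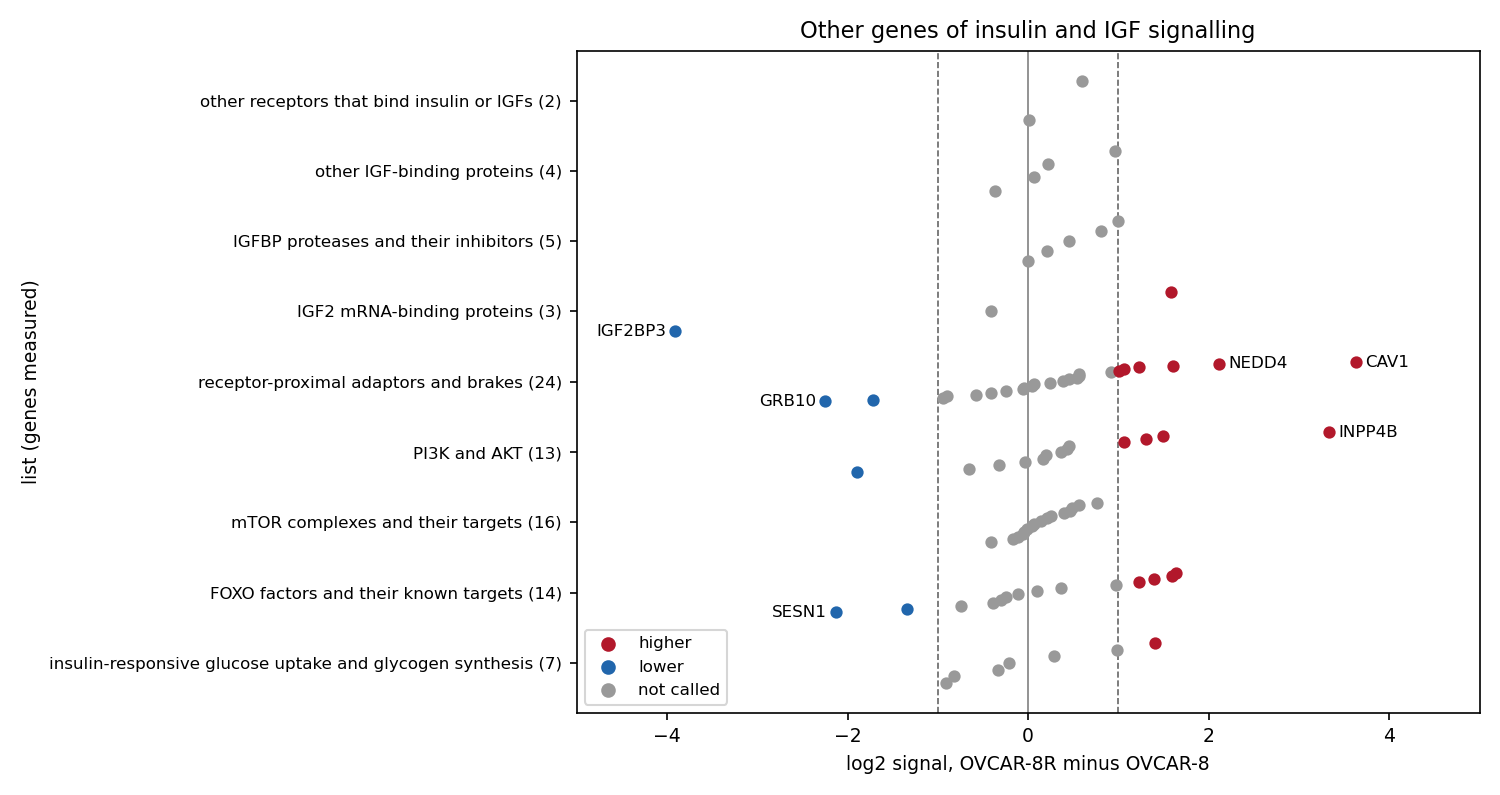
Log2 signal of OVCAR-8R minus OVCAR-8 (x axis) of the 88 measured pathway genes in the 9 lists that hold any (y axis, number measured in parentheses), a point per gene, red where called higher, blue where called lower and grey where not called. Dashed lines mark 2-fold, and genes beyond 4-fold are named. CAV1 at 3.63 and INPP4B at 3.33 are farthest to the right, IGF2BP3 at -3.91 is farthest to the left, and the 16 mTOR genes lie inside the lines.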

How the data were processed

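Total RNA of the spheroids was hybridised by the authors to Affymetrix Gene ST arrays, and RMA was run in Affymetrix Expression Console. The deposited values are 1 linear intensity per probeset and array, and log2 was taken here. RMA brings the arrays to a common scale, so an overall difference in RNA content between the lines is lost. Of 33297 probesets, 19460 are annotated to 1 gene. Following the study's methods, probesets of any annotation with a mean under the lower quartile (25%) in OVCAR-8R and in OVCAR-8 alike were dropped. This left 25628 of the 33297. Where a gene had several probesets, the brightest on average stood for it. The fit used limma (version 3.58.1) under R (version 4.3.3), and p-values were adjusted by Benjamini-Hochberg across these 25628. A call needed an adjusted p under 0.05 together with a 2-fold difference. The script was tested on simulated data. The genes, lists and alternatives were chosen with earlier results of these data known. Of each pathway list, up to 4 called genes per direction were named, lists of 4 or fewer genes whole, and any other gene is marked as chosen after its values were seen. Sequences came from RefSeq (GRCh38.p14), in which all 10 genes were found, and protein sequences were not used here. Alternatives covered the filter, call threshold, test, scaling, array weights, probeset choice, replicate block and leaving out each array. The study's other assays were not analysed here.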

Additional observations from a re-analysis of the deposited data

Results flagged for a closer look

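IRS4 was unusually low on OVCAR-8R array 1, at a log2 signal of 5.91, where the other OVCAR-8R arrays read 6.32 to 6.34. The gap to the nearest array was 0.954 of the group's range (Dixon's ratio, 4 arrays). Of the 18 groups examined (9 genes in 2 lines) this was the 1 that stood out, and chance alone marks about 1 in 20 groups. Without that array the IRS4 difference was -5.31, against -5.41 with it.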

How the results depend on the processing

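Over all alternatives the log2 differences of the 9 genes moved by less than the larger of the gene's SDs in the lines and none changed sign (8 genes with a filter at the median of signal, which IGFBP5 did not pass), and IRS4 and IGFBP2 were called lower under each. The 2 genes called higher were 5 (with 3 lower) when no limit was set on size, and 1 when at least 3-fold was asked, when limma tested for more than 2-fold (treat), or when a gene was represented by its probeset with the lowest mean, since IGF1R then dropped out. Leaving out each array gave 2 to 3 higher and 2 lower each time. Some moves exceeded the smaller SD, as for IGFBP2 (-1.59 without OVCAR-8R array 2) and IGF1R (0.97 without OVCAR-8 array 2). Array weights, whose estimation stopped before convergence, added IRS1. The pathway genes called were 39 higher and 21 lower with no limit on size, 6 higher at 3-fold, and 15 to 19 higher and 6 to 7 lower with each array left out. Over all genes the calls were 4396 higher and 4776 lower with no limit on size, 619 and 399 at 3-fold, 832 and 643 with treat, and 1306 to 1359 higher and 1269 to 1401 lower with each array left out. Of 620 alternative values of the named pathway genes, 601 kept their call, 13 lost it and 6 gained one. Arrays with the same number had no consistent relation between the lines. For arrays 1 to 4, r across the probesets kept was 0.16, -0.32, -0.05 and 0.44, so only arrays 4 clearly ran together. The numbers were therefore not taken as a pairing. A replicate block gave 2 genes of the family higher, 2 lower, and 1334 in each direction over all genes. Isoforms were not examined here, and 4 arrays per line limit the precision.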
